A study of Mus musculus with 16 samples.

Results

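The autophagy adaptors and the Atg8 family were followed as a set of 10 genes, Map1lc3a, Map1lc3b, Gabarap, Gabarapl1, Gabarapl2, Sqstm1, Nbr1, Optn, Tax1bp1 and Becn1, which were chosen by name and make up 10 of the 30389 genes in the count tables. The rule used no measured value, though the set was chosen with earlier results of these data known. All 10 were detected in every one of the libraries used when all cells of a library were summed.

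Drop-seq, which pairs single cells with barcoded beads in droplets, had been run on dissociated cortex of mice aged 17 months, with 1 library per mouse. The transgenic mice (TG) were of the THY-Tau22 line, a tauopathy model heterozygous for human 4-repeat tau with the mutations G272V and P301S under the neuronal Thy1.2 promoter. Their wild-type (WT) littermates served as controls, and both came from heterozygous THY-Tau22 sires and C57Bl6/J dams. The labels gave 16 libraries, from 4 WT males, 4 TG males, 3 WT females and 5 TG females. The replicate numbers used here were assigned in the order of the sample list and serve as names. The tables of WT male 3 and TG male 4 shared 2952 of their 3000 cell barcodes, against at most 12 for any other pair of tables, so both were left out and 14 libraries remained (3 WT males, 3 TG males, 3 WT females and 5 TG females). The titles of WT male 1 and TG female 1 carry the same animal number. WT female 3 and TG female 5 carry the label MB22 in their titles and the other libraries MB21, and what that label stands for is not stated.

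In macroautophagy, a membrane sheet closes around cytoplasm, protein aggregates or organelles, and the resulting autophagosome fuses with a lysosome, where its content is degraded. Proteins of the Atg8 family, which in mammals form an LC3 branch (Map1lc3a, Map1lc3b) and a GABARAP branch (Gabarap, Gabarapl1, Gabarapl2), are coupled to the lipid phosphatidylethanolamine on that membrane. Cargo receptors such as Sqstm1 (p62), Nbr1, Optn and Tax1bp1 bind ubiquitylated cargo on one side and Atg8 proteins on the other, while Becn1 belongs to the lipid kinase complex that marks the site where the membrane forms. Tau aggregates are among the cargoes described for this pathway, and Sqstm1 protein builds up where autophagic degradation stalls. The measurements here are of mRNA and say nothing of lipidated Atg8 protein or of autophagic flux.

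In mm10 (GENCODE annotation), the LC3 genes lie at chr2:155276297-155278073 (Map1lc3a, plus strand) and chr8:121590361-121598760 (Map1lc3b, plus strand). The GABARAP genes lie at chr11:69991143-69994951 (Gabarap), chr6:129533160-129542346 (Gabarapl1) and chr8:111940703-111953612 (Gabarapl2), each on the plus strand. Sqstm1 is at chr11:50199366-50210827 (minus strand), Nbr1 at chr11:101552149-101581951 (plus strand), Optn at chr2:5020642-5064051 (minus strand), Tax1bp1 at chr6:52713729-52766780 (plus strand) and Becn1 at chr11:101285952-101302286 (minus strand). All are protein-coding. Exons of Sqstm1, Map1lc3b, Gabarapl1, Becn1, Optn and Tax1bp1 overlap an exon of a gene on the opposite strand. As no strand setting of the counting is stated, it is not known whether reads of the overlapping genes were kept apart. Counts of 3 genes are uncertain because the last 500 bases of their transcripts resemble those of other genes in the tables, with at least 95% identity over 60 bases or more. For Map1lc3b these were 28 genes, namely 3 processed pseudogenes (Gm12727, Gm6054 and Gm6055, up to 275 bases) and 25 other genes that share a stretch of 107 to 112 bases, such as Cdkn1a, Cybrd1, Syt11 and Ypel5. For Becn1 they were the overlapping Cntd1 (411 bases), Atp13a2 and Gm26767, and for Gabarapl1 the overlapping 1700101I11Rik. How reads with several matches were counted is not given in the sources used here.

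The stretches just upstream of Gabarapl1, Gabarapl2 and Sqstm1 are shown because these genes had their highest levels in neurons, oligodendrocytes and microglia, respectively, in the results that follow. They come from the RefSeq start sites (GRCm38.p6) and are cut where the gene begins, at chr6:129532942-129533159 (plus strand) for Gabarapl1, chr8:111940453-111940702 (plus strand) for Gabarapl2 and chr11:50210828-50211070 (minus strand) for Sqstm1. Capitals mark a GC box (GGGCGG, on either strand):
Gabarapl1: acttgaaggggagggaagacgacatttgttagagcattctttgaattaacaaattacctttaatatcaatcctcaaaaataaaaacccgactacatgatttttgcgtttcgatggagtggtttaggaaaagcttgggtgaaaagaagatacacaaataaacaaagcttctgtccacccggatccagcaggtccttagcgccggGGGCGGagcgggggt
Gabarapl2: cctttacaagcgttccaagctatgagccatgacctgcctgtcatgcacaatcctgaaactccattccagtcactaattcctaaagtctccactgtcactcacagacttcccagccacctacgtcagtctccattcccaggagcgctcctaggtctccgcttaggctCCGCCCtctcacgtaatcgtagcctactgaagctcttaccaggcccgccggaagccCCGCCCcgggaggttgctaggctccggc
Sqstm1: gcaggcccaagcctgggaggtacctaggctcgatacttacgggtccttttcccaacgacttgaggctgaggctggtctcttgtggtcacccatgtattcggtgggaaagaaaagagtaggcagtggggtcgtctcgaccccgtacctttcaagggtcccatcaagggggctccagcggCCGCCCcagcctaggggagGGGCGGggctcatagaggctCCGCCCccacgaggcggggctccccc
The Gabarapl1 stretch held 1 GC box, that of Gabarapl2 held 2 and that of Sqstm1 held 3. RefSeq start sites were given for 8 of the 10 genes, not for Map1lc3a and Becn1, and 5 of their 10 windows of 250 bases held a GC box, against 32.74% of the 32851 windows of all genes. The E-box CACGTG, the core of the element bound by TFEB, was in 0 of the 10 windows and in 6.02% of all windows. The antioxidant response element TGACNNNGC was in 1 of the 10 windows, at the downstream start of Tax1bp1, and in 10.16% of all windows. Both strands were searched, and the open positions of the antioxidant response element allow it to overlap the other motifs. A match of letters is a description and not a measured binding site.

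A barcode was kept when it held 200 to 7000 detected genes, which left 28530 of 48000 barcodes in the 16 tables. Over the 14 libraries, 1121 to 2526 barcodes were kept with 755945 to 2089367 unique molecular identifiers (UMIs) in total, and the median barcode held 429 to 736.5 UMIs. Clusters were named from marker genes, and the 10 genes were kept out of the clustering, so that no class name rests on them. Microglia (6844 barcodes in the 14 libraries), oligodendrocytes (4663), astrocytes (4536), endothelial cells (3332), neurons (1219) and oligodendrocyte precursors (1116) were compared among 24578 barcodes in all. Neurons, the cells the Thy1.2 promoter is meant for, were thus a small class. The class markers were present at high levels in their own class (20541 CPM or more of the neuron markers in neurons, 25173 CPM or more of the microglial markers in microglia), but the neuron sums also held 760.5 to 19017.9 CPM (counts per 1000000 UMIs of the sum) of the 10 oligodendrocyte markers and the precursor sums 3288.4 to 14716.8 CPM, with 0 of those 10 markers at 0. TG male 3 stood apart in that 28.6% of its barcodes fell into unnamed clusters, against at most 6.96% in the other libraries. The median share of UMIs from mitochondrially encoded mRNAs was 0.331 to 0.544% in WT males and 0.873 to 1.24% in TG males, which do not overlap. It was 0.346, 0.859 and 1.16% in WT females and 0.588 to 0.889% in TG females.

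The level of each gene in the cell classes was examined. Sqstm1 and Gabarap were highest in microglia and oligodendrocytes, Gabarapl1 in neurons, Gabarapl2 in oligodendrocytes and Tax1bp1 in endothelial cells by their means, and Gabarapl1 was lowest in microglia in 14 of 14 libraries. A class was called different for a gene when edgeR's quasi-likelihood test against the mean of the other 5 classes, with library as a term, gave a Benjamini-Hochberg adjusted p below 0.05 over the 5208 genes tested and a log2 difference of at least 0.5. Optn fell to the low-count filter, so 9 of the 10 genes were tested. The share of all tested genes called different was large in every class: 66.1% in microglia, 56.4% in astrocytes, 53.7% in oligodendrocytes, 60.6% in endothelial cells, 60% in neurons and 43% in oligodendrocyte precursors. Read against these shares, the 9 genes were called 4 times in microglia, 1 time in astrocytes, 4 times in oligodendrocytes, 1 time in endothelial cells, 7 times in neurons and 2 times in precursors. Becn1 and Nbr1 were called in no class. Levels are UMIs at the 3′ end and are not divided by length, so levels of different genes were not compared.

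**Figure D1:**
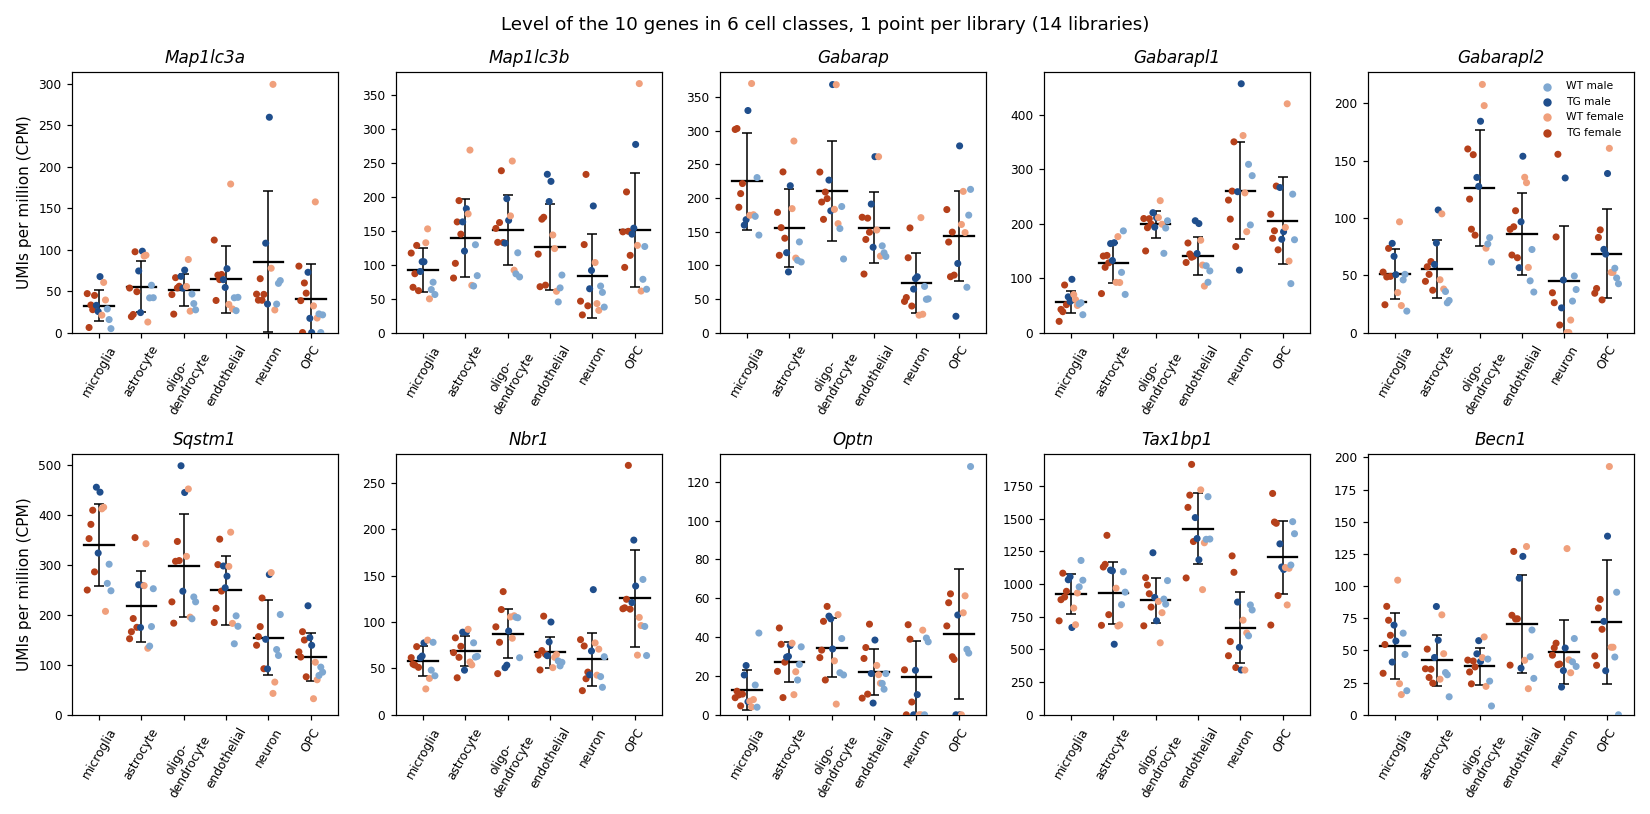
Level in CPM (y axis from 0) of the 10 genes in the 6 cell classes (x axis, OPC for oligodendrocyte precursor), 1 point per library colored by group; the line is the mean over 14 libraries and the bar the SD. Sqstm1 and Gabarap were highest in microglia, Gabarapl1 in neurons, Gabarapl2 in oligodendrocytes and Tax1bp1 in endothelial cells.

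Among the Atg8 genes, Gabarapl1 had the widest range, with a mean level 4.68 times as high in neurons as in microglia. Its neuronal sums ran from 115 to 457 CPM (median 257, mean 260.5 ± 89.6 SD, n = 14) and its microglial sums from 20.5 to 97.7 CPM (median 53.6, mean 55.7 ± 20.4 SD, n = 14). All microglial sums lay below all neuronal sums. The log2 difference from the other classes was 1.02 ± 0.11 (SE) in neurons (edgeR adjusted p = 1.95e-15) and -1.57 ± 0.11 in microglia (edgeR adjusted p = 5.47e-30). Oligodendrocytes followed precursors in the order, with 198 CPM and a log2 difference of 0.61 ± 0.09 from the other classes (edgeR adjusted p = 7.24e-10).

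Gabarap, which gives the GABARAP branch its name, had nearly the opposite order. Microglial sums ran from 145 to 370.5 CPM (median 197, mean 225 ± 72.3 SD, n = 14) and neuronal sums from 25.8 to 171 CPM (median 58.4, mean 73.2 ± 44.6 SD, n = 14), so that the ranges overlapped. Its log2 difference from the other classes was 0.83 ± 0.08 in microglia (edgeR adjusted p = 3.01e-18), 0.69 ± 0.09 in oligodendrocytes (edgeR adjusted p = 2.3e-12) and -1.34 ± 0.16 in neurons (edgeR adjusted p = 2.26e-14).

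Gabarapl2 was led by oligodendrocytes, which had the highest level in 12 of 14 libraries. Oligodendrocyte sums ran from 61.6 to 217 CPM (median 122, mean 126 ± 50.5 SD, n = 14), and the log2 difference from the other classes was 1.14 ± 0.12 (edgeR adjusted p = 1.59e-17). In neurons it was lower than in the other classes by -0.63 ± 0.21 on the log2 scale (edgeR adjusted p = 0.00551), where the 14 libraries together gave 51 UMIs and WT females 1 and 2 gave 0.

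The LC3 genes varied less. Map1lc3b, the form most used as a marker of autophagosomes, had the narrowest range of the 10 genes, from 151.4 CPM in oligodendrocytes to 83.0 CPM in neurons, a ratio of 1.82. It was called higher in astrocytes (0.51 ± 0.10, edgeR adjusted p = 7.38e-06), just past the limit of 0.5, and lower in neurons (-0.59 ± 0.16, edgeR adjusted p = 0.000639). Oligodendrocytes differed by nearly as much (0.497 ± 0.099, edgeR adjusted p = 3.39e-06), just under the limit, and were not called. Map1lc3a had neuronal sums from 27.2 to 299 CPM (median 52.8, mean 85.5 ± 85.1 SD, n = 14) and endothelial sums from 26.4 to 179 CPM (median 59.0, mean 64.3 ± 40.2 SD, n = 14). Its higher neuronal mean came with 2 libraries, WT female 2 and TG male 3, that stood above the rest, the endothelial median was the higher one, and neurons were highest in 6 of 14 libraries. Its log2 difference from the other classes was 0.72 ± 0.20 in neurons (edgeR adjusted p = 0.000886) and 0.50 there without TG male 3. The difference was -0.54 ± 0.16 in microglia (edgeR adjusted p = 0.00119) and -0.84 ± 0.27 in precursors (edgeR adjusted p = 0.00563).

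Sqstm1, the receptor for ubiquitylated aggregates that also binds Keap1, was the cargo receptor called in most classes. Microglial sums ran from 207 to 455 CPM (median 338, mean 339 ± 81.6 SD, n = 14), oligodendrocyte sums from 183 to 498 CPM (median 277, mean 298 ± 104 SD, n = 14) and precursor sums from 32.2 to 218 CPM (median 110.2, mean 115 ± 47.8 SD, n = 14). Microglia had the highest level in 10 of 14 libraries and precursors the lowest in 10 of 14. The log2 difference was 0.91 ± 0.07 in microglia (edgeR adjusted p = 7.64e-25), 0.64 ± 0.08 in oligodendrocytes (edgeR adjusted p = 1.89e-13), -0.51 ± 0.12 in neurons (edgeR adjusted p = 8.63e-05) and -1.44 ± 0.14 in precursors (edgeR adjusted p = 7.64e-18).

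Tax1bp1, a receptor with roles in the clearance of ubiquitylated cargo and in NF-kappa-B signaling, was highest in endothelial cells in 12 of 14 libraries and lowest in neurons in 12 of 14. Endothelial sums ran from 957 to 1914 CPM (median 1346, mean 1424 ± 270 SD, n = 14) and neuronal sums from 342 to 1215 CPM (median 615, mean 667 ± 272 SD, n = 14). The log2 difference was 0.62 ± 0.06 in endothelial cells (edgeR adjusted p = 4.25e-19) and -0.65 ± 0.08 in neurons (edgeR adjusted p = 4.5e-14). Nbr1, which shares its domain layout with Sqstm1, was highest in precursors in 10 of 14 libraries (mean 125 CPM) and lowest in microglia by mean (58.1 CPM), with no class past both limits. Optn, known from inherited glaucoma and motor neuron disease, gave 428 UMIs in all and class means from 12.8 CPM in microglia to 41.6 CPM in precursors, and was not tested. Becn1 had class means from 37.8 CPM in oligodendrocytes to 71.9 CPM in precursors.

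**Figure D2:**
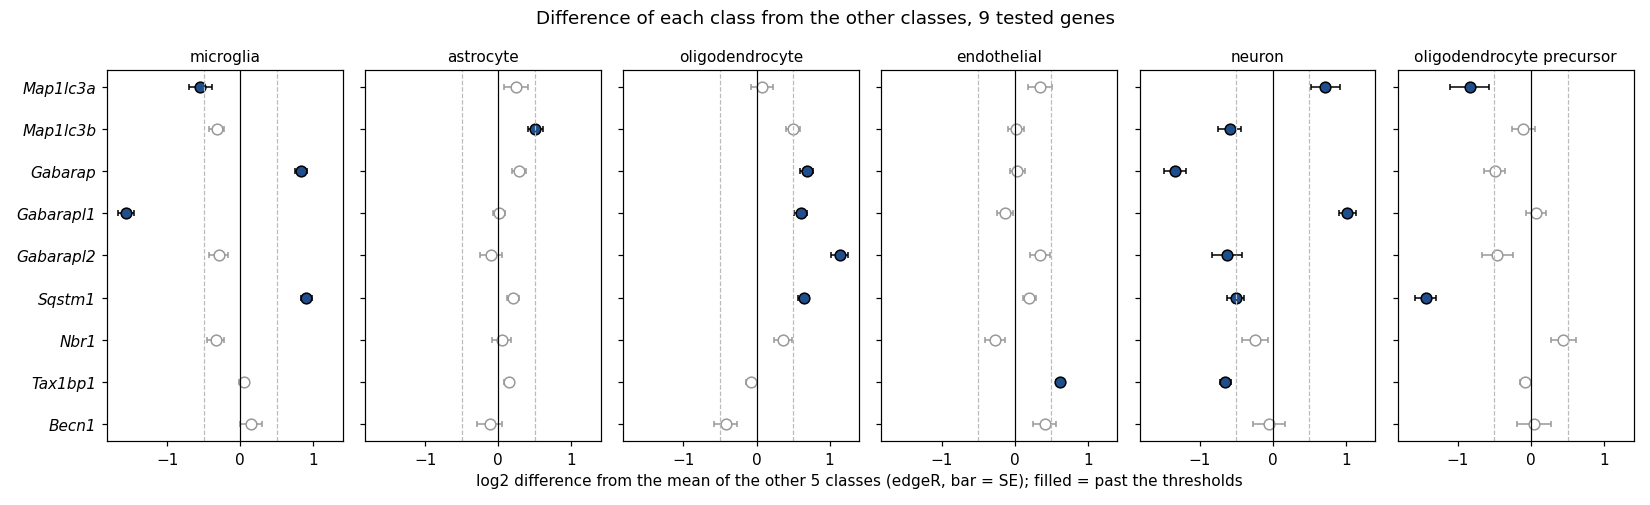
Log2 difference (x axis) of each cell class (panels) from the mean of the other 5 classes for the 9 tested genes (y axis), with the SE as a bar and dashed lines at 0.5 on either side of 0; filled points passed both limits. Neurons had the most filled points, 2 to the right for Map1lc3a and Gabarapl1 and 5 to the left.

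Classes that follow each other in the order of a gene were then compared within libraries. Over the 10 genes there were 50 such pairs, tested on log2(CPM + 1) by a two-sided exact sign-flip permutation test over 14 libraries, and 10 pairs differed after Benjamini-Hochberg adjustment over the 50. For Gabarapl1, astrocytes exceeded microglia by 1.22 ± 0.43 (SD) on the log2 scale, in 14 of 14 libraries (exact permutation p = 0.000122, the smallest this design can give, adjusted p = 0.00305). Sqstm1 was higher in microglia than in oligodendrocytes by 0.22 ± 0.29, in 11 of 14 libraries (exact permutation p = 0.00916, adjusted p = 0.0458). Gabarapl2 was higher in oligodendrocytes than in endothelial cells by 0.55 ± 0.32, in 13 of 14 libraries (exact permutation p = 0.000244, adjusted p = 0.00305). The other 7 pairs were oligodendrocyte over endothelial for Sqstm1, Gabarap and Gabarapl1, astrocyte over neuron for Sqstm1, and endothelial over precursor, precursor over astrocyte and oligodendrocyte over neuron for Tax1bp1. No neighbors passed for Map1lc3a, Map1lc3b, Becn1, Optn or Nbr1, so the order of classes next to each other is not resolved for those genes. The lead of neurons over precursors for Gabarapl1 was not resolved either (0.35 ± 0.69, exact permutation p = 0.0811, adjusted p = 0.225).

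The scaling of the class sums bears on these values. The median log2 difference over all tested genes was -0.158 in microglia, -0.092 in astrocytes and -0.094 in precursors with TMM factors, and -0.282, -0.337 and 0.378 with total UMIs alone. Under total UMIs alone, 16 of the 19 calls stood, and Map1lc3b in astrocytes (0.26), Gabarapl1 in oligodendrocytes (0.48) and Map1lc3a in precursors (-0.36) fell under the limit of 0.5 without a change of direction. The call of Map1lc3b in astrocytes also lay under 0.5 without WT male 2 or 4, TG female 2, 4 or 5, TG male 1, or any of the 3 WT females (0.43 to 0.49), and that of Map1lc3a in microglia without WT male 4, TG female 2, TG male 1, WT female 1 or WT female 2 (-0.49 to -0.39). That of Sqstm1 in neurons lay under 0.5 without TG female 1, TG male 2, WT female 2 or WT female 3 (-0.50 to -0.44).

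The genes whose log2(CPM + 1) ran most alike over the 84 sums (6 classes in 14 libraries, 5199 other genes compared) were listed for each gene. These correlations are descriptions, since the sums share libraries, depth and class identity. Gabarapl1 was most like Thra, a thyroid hormone receptor (Pearson r = 0.842), and then Atp6v0e2, a subunit of the proton pump that acidifies lysosomes (r = 0.766). Map1lc3b was most like Selenok (r = 0.815), Ndufa6 (0.785) and Ndufb3 (0.779), the latter both subunits of respiratory complex I, and Gabarapl2 like Eapp (0.763), Ndufa7 (0.746) and Shfm1 (0.74). Sqstm1 was most like the ribosomal protein gene Rplp0 (r = 0.753), and Gabarap like the ribosomal protein genes Rpl8 (0.698) and Rpl11 (0.697) and the lysosomal membrane protein gene Lamp1 (0.687). The highest r was 0.752 for Tax1bp1 (Serbp1), 0.644 for Map1lc3a (Pafah1b2), 0.634 for Nbr1 (Snx22), 0.598 for Optn (Phf2) and 0.593 for Becn1 (Arf5). Among the 10 genes themselves, Map1lc3b and Gabarapl2 were most alike (r = 0.573) and Map1lc3a and Tax1bp1 least (r = -0.316).

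Cell states that other genes define within a class were compared where at least 10 cells of both states were present in a library. Microglia with at least 1 UMI of Clec7a, Cst7 or Itgax, genes known from activated microglia around lesions, numbered 226 in the 14 libraries (3.30% of microglia, against 0.044 to 0.538% of the other 5 classes), and 11 libraries entered the fit. These microglia were also deeper, with 622.75 UMIs against 486 in the other microglia, as medians of the library medians. Of the 3 genes that could be tested, 0 were called, against 2.14% of the 1355 genes tested. The log2 difference between microglia with and without these transcripts was 0.44 ± 0.27 for Gabarap (edgeR adjusted p = 0.511), 0.24 ± 0.22 for Sqstm1 (edgeR adjusted p = 0.734) and -0.21 ± 0.16 for Tax1bp1 (edgeR adjusted p = 0.622). The 209 neurons with a UMI of Gad1 or Gad2, which make GABA, were 17.1% of all neurons, a class with a median of 707 UMIs. The share was 0.175 to 0.309% in microglia, astrocytes, oligodendrocytes and endothelial cells and 2.96% in precursors, all classes with lower medians. Neurons with Gad1 or Gad2 had 595.25 UMIs and the other neurons 675.75, as medians of the library medians. They could be compared with the other neurons in 9 libraries and only for Tax1bp1 (0.37 ± 0.20, edgeR adjusted p = 0.186), so 0 of 1 gene was called against 21.2% of 292. Astrocytes split by Gfap could not be fitted, as 2 libraries had 10 cells of both states.

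The comparison of TG with WT mice over all cells of a library was made within males, within females, averaged over both sexes, and as the difference between the sexes (male minus female). No gene of the set was called in any of the 4 contrasts, and the share of the 11643 genes tested that was called was 0% in each. DESeq2 called 0 of the 10 as well. At an unadjusted p below 0.05 stood 3 of the 10 genes in males (15.4% of all genes), 0 in females (1.74%), 0 over both sexes (4.22%) and 2 in the difference between the sexes (12.7%). The smallest adjusted p over both sexes was 0.946. Sums over all cells cannot tell fewer cells of a type from less RNA per cell. The p-values here set a difference against the spread between the mice of this series.

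Gabarapl2, Map1lc3b, Sqstm1 and Becn1 were the genes whose TG males all lay above the WT males, 4 of 10 against 22.4% of all genes tested. For Gabarapl2 the WT males had 50.7, 57.4 and 37.6 CPM and the TG males 85.9, 85.0 and 107.6 CPM. The WT females had 103, 125 and 40.6 CPM and the TG females 84.2, 64.6, 71.3, 103 and 52.3 CPM. The male groups thus do not overlap, whereas TG females lay inside the wide range of WT females, in which WT female 3 was the lowest. The log2 difference was 0.74 ± 0.29 in males (edgeR adjusted p = 0.272) and -0.18 ± 0.26 in females (adjusted p = 1), and the difference between the sexes was 0.92 ± 0.39 (adjusted p = 0.335). With the 6 classes weighted equally, on the log2(CPM + 1) scale, the direction in females turned. The differences were then 0.91 in males (exact permutation p = 0.1) and 0.47 in females (exact permutation p = 0.25). Over both sexes the difference was 0.69 (exact permutation p = 0.017, not adjusted for the 10 genes), against 0.28 ± 0.20 in the sums (edgeR adjusted p = 0.946). In neurons, however, WT females 1 and 2 gave 0 UMIs of Gabarapl2, from sums of 38706 and 23399 UMIs. Equal weighting gives these 0 counts the same weight as any other class. The turn in females and the value over both sexes thus cannot be read apart from them.

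For Map1lc3b the WT males had 73.2, 104 and 72.9 CPM and the TG males 138, 154 and 162 CPM. The WT females had 152, 200.2 and 65.9 CPM and the TG females 120.2, 86.5, 138, 177 and 97.9 CPM. WT female 3 was again the lowest of its group and of all 14 libraries. The log2 difference was 0.69 ± 0.28 in males (edgeR adjusted p = 0.277) and -0.10 ± 0.25 in females (adjusted p = 1), and the difference between the sexes was 0.79 ± 0.38 (adjusted p = 0.387).

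For Sqstm1 the WT males had 181, 214 and 209.5 CPM and the TG males 389, 253 and 349 CPM. The WT females had 303, 379.7 and 162 CPM and the TG females 202, 219, 290.7, 355 and 229.7 CPM. Male groups do not overlap, and female groups do. The log2 difference was 0.54 ± 0.25 in males (edgeR adjusted p = 0.318) and -0.07 ± 0.23 in females (adjusted p = 1). For Becn1 the WT males had 47.4, 43.9 and 19.4 CPM and the TG males 50.6, 58.3 and 64.4 CPM, and the log2 difference in males was 0.42 ± 0.29 (edgeR adjusted p = 0.487). An exact permutation of genotype among the 3 WT and 3 TG males gave p = 0.1 for each of these 4 genes, the smallest it can give. Without TG male 3, the library with many unnamed barcodes, the male differences were 0.66 for Gabarapl2, 0.68 for Map1lc3b, 0.54 for Sqstm1 and 0.38 for Becn1. Summed immediate early genes, which dissociation is known to induce, were also apart in males, with 11123 to 13383 CPM in WT and 13612 to 15535 CPM in TG males, and their part in the differences was not tested.

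The other genes overlapped between genotypes in males. Their log2 differences in males were 0.57 ± 0.36 for Map1lc3a, 0.29 ± 0.26 for Gabarap, 0.10 ± 0.20 for Gabarapl1, -0.07 ± 0.23 for Nbr1, -0.06 ± 0.37 for Optn and -0.27 ± 0.26 for Tax1bp1, with edgeR adjusted p from 0.435 to 0.953. In females, 0 of the 10 genes had groups that do not overlap with TG above WT (0.679% of all genes), and the log2 differences ran from -0.22 ± 0.32 for Map1lc3a to 0.29 ± 0.34 for Optn, each at an edgeR adjusted p of 1. Over the 10 genes the median difference was 0.36 in males and -0.04 in females, against 0.01 in males and -0.01 in females over all genes tested. The 10 genes were not tested as a set. The calls in males, in females and over both sexes stayed at 0 without any 1 library. The difference between the sexes was called for Gabarapl2 (1.24, edgeR adjusted p = 0.0238) and Map1lc3b (1.08, edgeR adjusted p = 0.0374) when WT female 3 was left out, where 9.56% of all genes were called. In the MB21 libraries alone, without WT female 3 and TG female 5, it was called for Gabarapl2 (1.13, edgeR adjusted p = 0.0415), with 6.04% of all genes called, and not for Map1lc3b (1.01, edgeR adjusted p = 0.0645).

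**Figure D3:**
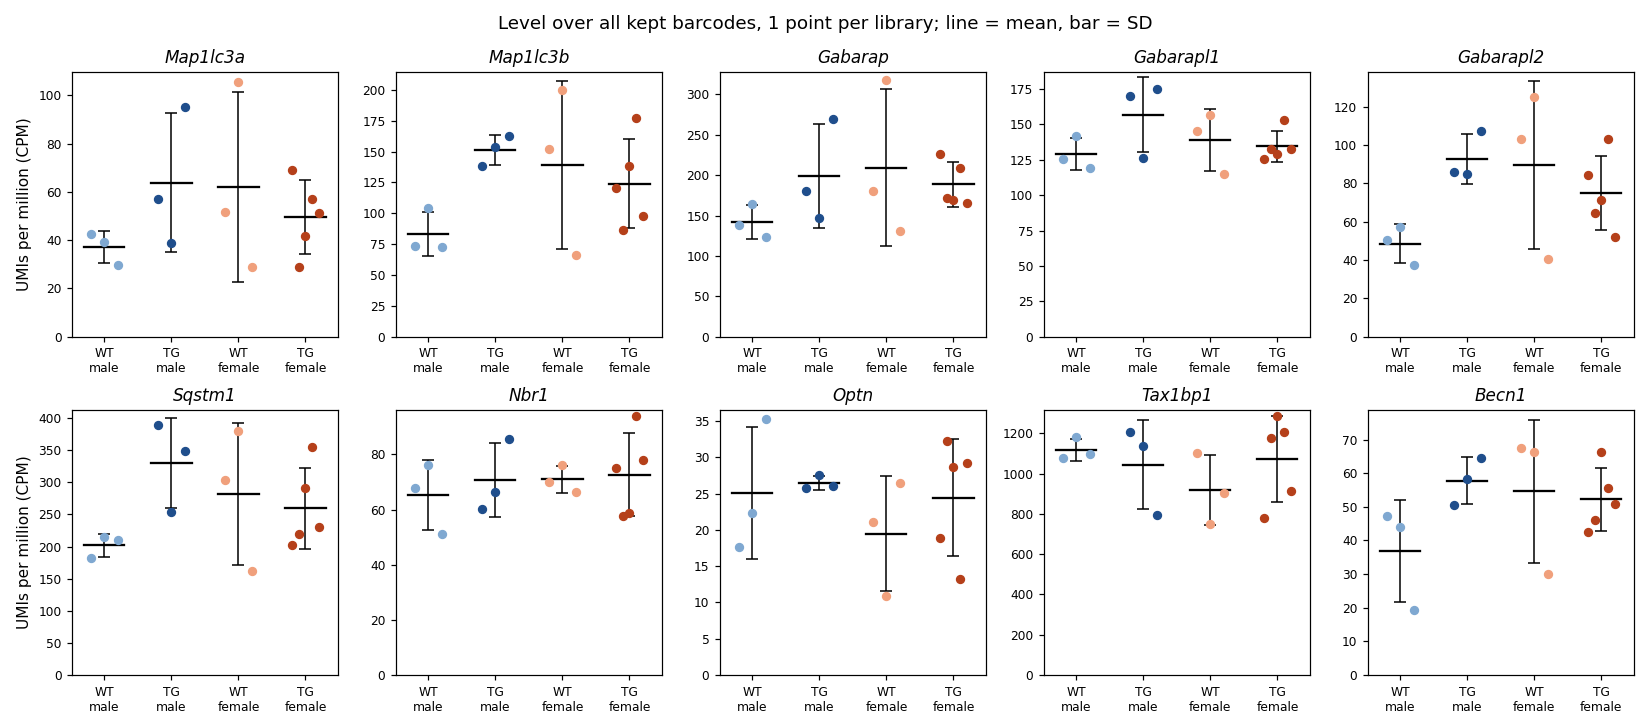
Level in CPM (y axis from 0) over all kept barcodes for the 10 genes in the 4 groups (x axis), 1 point per library, with the mean as a line and the SD as a bar (3 WT males, 3 TG males, 3 WT females, 5 TG females). TG males lie above WT males for Map1lc3b, Gabarapl2, Sqstm1 and Becn1, while the female groups overlap for every gene.

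The mitochondrial share of the libraries moved with several of these genes, also within groups. It separates the male groups completely, so that in males it cannot be told apart from genotype, and WT female 3, the lowest WT female for Gabarapl2, Map1lc3b and Sqstm1, also had the lowest share of its group. A slope on log2 of the share, fitted with the 4 groups kept apart, was called for 3 of the 10 genes, against 13.6% of all genes tested. The level rose with each unit of log2 share by 0.72 ± 0.14 for Map1lc3b (edgeR adjusted p = 0.00282), by 0.68 ± 0.17 for Gabarapl2 (edgeR adjusted p = 0.0095) and by 0.70 ± 0.23 for Map1lc3a (edgeR adjusted p = 0.0467). The slope was 0.49 ± 0.15 for Sqstm1 (edgeR adjusted p = 0.0338, under the limit of 0.5), 0.55 ± 0.19 for Becn1 (adjusted p = 0.0597), 0.44 ± 0.16 for Gabarap (adjusted p = 0.0641) and -0.70 ± 0.25 for Optn (adjusted p = 0.066). For Gabarapl1 (0.10), Tax1bp1 (-0.15) and Nbr1 (0.03) the slope was within 1 SE of 0.

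These calls rest on few libraries. Without WT female 3 the slopes were 0.68 for Map1lc3b, 0.50 for Gabarapl2 and 0.62 for Map1lc3a and 0 of the 10 genes were called (0.0335% of all genes), and 0 were called in the MB21 libraries alone (0.034%). Without WT female 2 only Map1lc3b was called (4.74% of all genes), and without TG female 3 there were 5 calls (14.2% of all genes). When the share entered the model as a covariate, the male differences of Gabarapl2 (-0.13), Map1lc3b (-0.21), Sqstm1 (-0.09), Becn1 (-0.28), Map1lc3a (-0.36), Gabarap (-0.27) and Gabarapl1 (-0.03) were below 0, and that of Optn was 0.86, none of them called. Because the share separates the male groups completely, this fit cannot tell its part in the male differences from that of genotype. The part of the share was not tested.

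**Figure D4:**
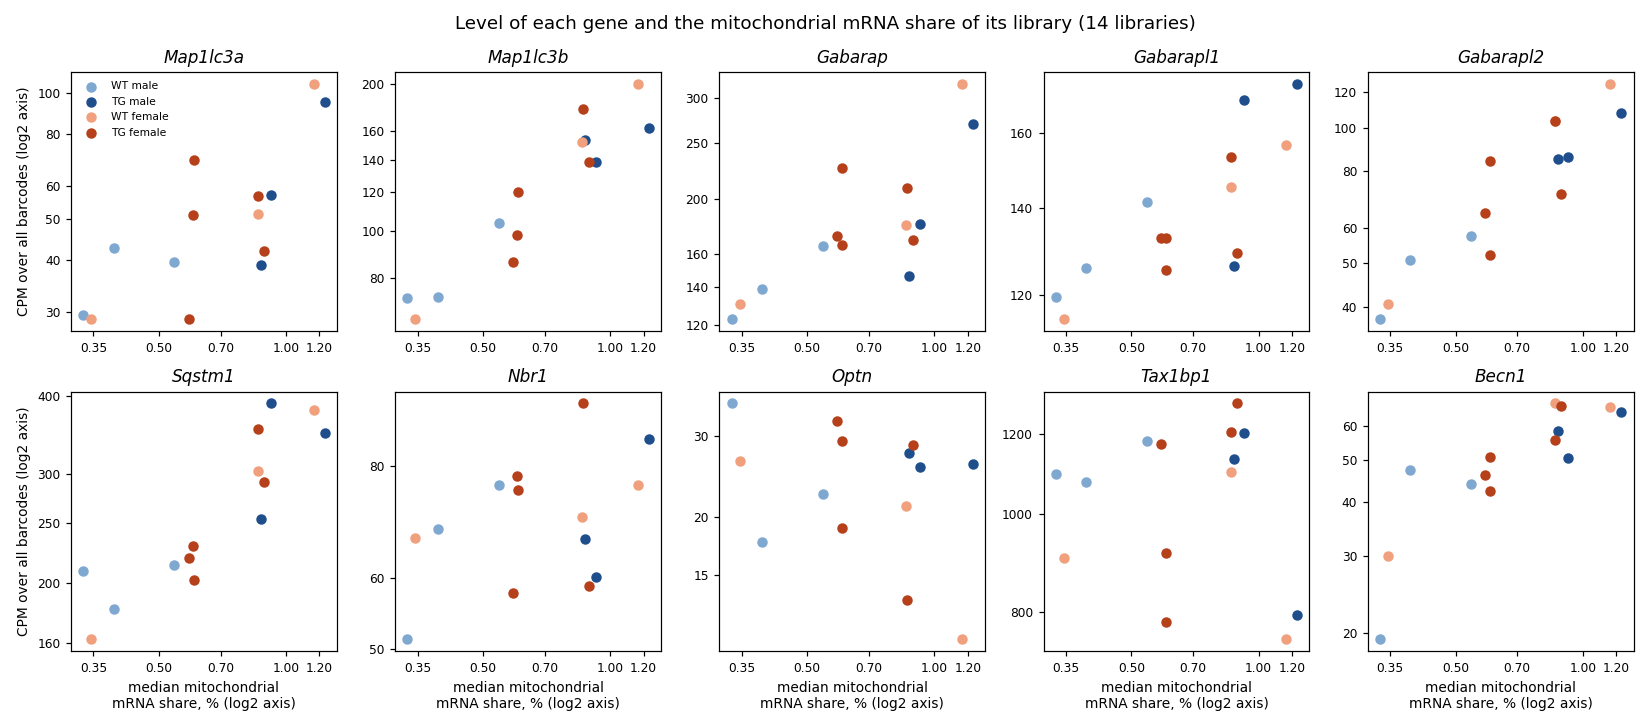
Level over all kept barcodes in CPM (y axis, log2) of the 10 genes against the median mitochondrial mRNA share of the library in percent (x axis, log2), 1 point per library colored by group. Map1lc3b and Gabarapl2 rise with the share, among WT females from 65.9 and 40.6 CPM (WT female 3, 0.346%) to 200.2 and 125 CPM (WT female 2, 1.16%). The lowest share was 0.331% in WT male 4 (72.9 and 37.6 CPM) and the highest 1.23% in TG male 3 (162 and 107.6 CPM). Without WT female 3, neither slope was called.

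Within the cell classes, 45 of the 60 combinations of gene and class could be tested. These were 9 genes each in microglia, astrocytes and endothelial cells, 10 in oligodendrocytes and 4 each in neurons and precursors. Differences in class shares do not enter these sums directly, though each class sum also held markers of other classes. No gene of the set was called in any class or contrast. The share of all genes called was 0.53% in males and 0.0196% over both sexes in microglia, 0.0691% in males, 0.023% in females and 0.161% for the difference between the sexes in oligodendrocytes, 0.0596% in males in endothelial cells, 0.081% over both sexes in precursors, and 0% in every other contrast. In microglia, the class with the highest Sqstm1 level, 0 of 9 genes reached an unadjusted p below 0.05 in males, against 17.4% of all genes, and Sqstm1 differed by 0.48 ± 0.25 (edgeR adjusted p = 0.325). In neurons, the class the transgene is driven in, 0 of 4 did so (7.27% of all genes), and in precursors 0 of 4 (9.39%).

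Map1lc3b in endothelial cells showed the largest male difference among the combinations tested. The WT males had 45.2, 65.9 and 84.9 CPM, from 14, 10 and 12 UMIs, and the TG males 234, 193 and 223 CPM, from 33, 32 and 29 UMIs. The WT females had 144, 124 and 60.9 CPM and the TG females 116, 67.7, 167, 170.2 and 70.0 CPM. TG males thus lay above every other library, and the female groups overlap. Endothelial sums also held 0 to 12645.7 CPM of the 5 erythrocyte markers (median 28.6), and the part of these was not tested. Sqstm1, Map1lc3a, Gabarapl1 and Nbr1 also had all TG males above all WT males in endothelial cells. The same held for Sqstm1, Map1lc3b and Gabarapl1 in microglia and for Sqstm1, Map1lc3a, Map1lc3b and Gabarapl2 in oligodendrocytes. It also held for Sqstm1, Map1lc3b and Gabarapl2 in precursors, and for no gene of the set in neurons. In females, Nbr1 in precursors had all TG above all WT libraries. Of the genes named for precursors, only Map1lc3b was tested there. Within classes, the share of all genes with TG males above WT males was not counted, so whether these genes stand out there cannot be told. Over all cells, which give deeper sums, that share was 22.4%. The log2 difference of Map1lc3b in males was 1.62 ± 0.37 (edgeR adjusted p = 0.116), where 16% of all genes stood at an unadjusted p below 0.05. It was 0.90 ± 0.25 over both sexes (adjusted p = 0.899, 5.12% of all genes) and the difference between the sexes was 1.44 ± 0.50 (adjusted p = 0.254, 14.1% of all genes). The male difference was called in the MB21 libraries alone (1.62, edgeR adjusted p = 0.0114, 1.5% of all genes called), without WT female 2 (1.61, adjusted p = 0.0292, 0.575% of all genes) or WT female 3 (1.60, adjusted p = 0.0147, 1.16%), and with the shared table kept as a WT male (1.60, adjusted p = 0.0387, 0.41%). With the mitochondrial share as a covariate it was 0.90 (edgeR adjusted p = 0.999).

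In astrocytes, Gabarapl2 had 35.8, 25.9 and 28.0 CPM in WT males and 59.4, 78.2 and 107.0 CPM in TG males, from 4 to 24 UMIs a library. The WT females had 46.1, 103.6 and 38.0 CPM and the TG females 44.7, 57.4, 50.8, 62.0 and 36.9 CPM. The male groups do not overlap and the female groups do. Becn1 also had all TG males above all WT males in astrocytes. The share of all genes that did so there was not counted, so whether the 2 genes stand out cannot be told. The log2 difference of Gabarapl2 in males was 1.15 ± 0.44 (edgeR adjusted p = 0.186), 1 of 9 genes at an unadjusted p below 0.05 against 17.1% of all genes. The difference between the sexes stood at that level for 2 of 9 genes (17.8% of all genes), with 1.45 ± 0.58 for Gabarapl2 (edgeR adjusted p = 0.202) and 1.51 ± 0.66 for Becn1 (edgeR adjusted p = 0.236).

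In oligodendrocytes, Sqstm1 had 192, 235.5 and 226 CPM in WT males and 498, 247 and 444 CPM in TG males. TG males 1 and 3 stood well above the WT males, whereas TG male 2 was close to them. The log2 difference in males was 0.65 ± 0.28 for Sqstm1 (edgeR adjusted p = 0.228), 0.77 ± 0.35 for Gabarapl2 (edgeR adjusted p = 0.249) and -0.74 ± 0.36 for Nbr1 (edgeR adjusted p = 0.28), 3 of 10 genes at an unadjusted p below 0.05 against 17.5% of all genes. The difference between the sexes was 0.81 ± 0.38 for Sqstm1 (edgeR adjusted p = 0.285) and 1.10 ± 0.46 for Gabarapl2 (edgeR adjusted p = 0.232), 2 of 10 genes against 16.5%. Without WT female 3, the latter was 1.41 and was called, where 10.5% of all genes were called.

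**Figure D5:**
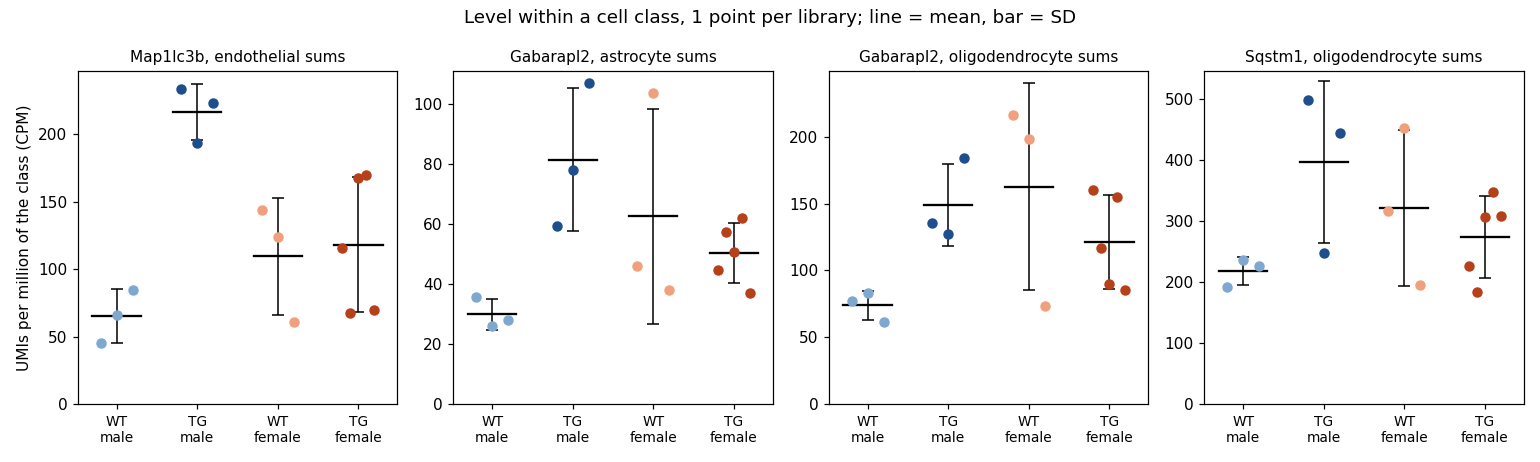
Level within the class in CPM (y axis from 0) in the 4 groups (x axis) for Map1lc3b in endothelial sums, Gabarapl2 in astrocyte and oligodendrocyte sums and Sqstm1 in oligodendrocyte sums, 1 point per library, with the mean as a line and the SD as a bar. Endothelial Map1lc3b was 193 to 234 CPM in TG males and 45.2 to 84.9 CPM in WT males.

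The slope on the mitochondrial share was also fitted within the classes. It was called for Map1lc3b (0.84 ± 0.21, edgeR adjusted p = 0.00518) and Map1lc3a (1.10 ± 0.38, edgeR adjusted p = 0.039) in astrocytes, 2 of 9 genes against 16.6% of all genes, and for Becn1 in endothelial cells (1.39 ± 0.36, edgeR adjusted p = 0.00896), 1 of 9 against 11.5%. It was called for 0 genes of the set in microglia (9.45% of all genes), oligodendrocytes (12.6%), neurons (0.556%) and precursors (3.24%).

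The rest of the pathway was followed in 7 lists with 60 genes, of which 57 were tested over all cells. Between genotypes, 0 of the 57 were called in any contrast, nor was any gene of the lists called within a class. An unadjusted p below 0.05 was reached by 1 of the 57 in females (1.74% of all genes), 2 over both sexes (4.22%) and 3 in the difference between the sexes (12.7%). In males 3 of the 57 stood at that level, against 15.4% of all genes: the cargo receptor gene Calcoco1 (1.08 ± 0.39, edgeR adjusted p = 0.263), Rab7 of late endosomes (0.61 ± 0.25, edgeR adjusted p = 0.276) and Rb1cc1 (-0.65 ± 0.29, edgeR adjusted p = 0.3). Between classes, 22 of the 60 were tested, and 9 were called higher and 2 lower in microglia, 7 and 3 in oligodendrocytes, 8 and 5 in endothelial cells, 2 and 5 in astrocytes, 5 and 8 in neurons and 0 and 6 in precursors. As shares of the 22 these counts were no larger than those of all tested genes in microglia (66.1%), oligodendrocytes (53.7%), endothelial cells (60.6%), astrocytes (56.4%), neurons (60%) and precursors (43%).

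Of each list the genes with the highest mean level over all cells are named where a class was called. Rb1cc1, the scaffold of the initiation complex, was higher in neurons (0.84 ± 0.09, edgeR adjusted p = 1.2e-15), and its kinase Ulk2 in microglia (1.60 ± 0.12, edgeR adjusted p = 8.68e-28). Nrbf2 of the lipid kinase complex that holds Becn1 was higher in microglia (1.88 ± 0.14, edgeR adjusted p = 2.54e-27), while Becn1 itself was not called. Atg3, the enzyme that passes Atg8 proteins on to the lipid, was higher in oligodendrocytes (1.15 ± 0.09, edgeR adjusted p = 2.95e-27) and lower in neurons (-0.75 ± 0.15, edgeR adjusted p = 4.46e-06), and Atg12 was higher in endothelial cells (0.67 ± 0.13, edgeR adjusted p = 1.47e-06).

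Oligodendrocytes also had more of Vmp1 and Wipi1, which act in membrane supply, by 2.11 ± 0.11 (edgeR adjusted p = 7.06e-46) and 2.01 ± 0.11 (edgeR adjusted p = 8.74e-41) on the log2 scale. The mitophagy receptor gene Bnip3l differed there by 1.81 ± 0.08 (edgeR adjusted p = 3.07e-51) and Retreg1, a receptor for the endoplasmic reticulum, by 2.35 ± 0.13 (edgeR adjusted p = 8.18e-40), though Retreg1 was also higher in microglia (2.14 ± 0.13). Rab7 was higher in oligodendrocytes by 0.62 ± 0.10 (edgeR adjusted p = 7.99e-09). Vamp8, a fusion protein, was higher in microglia by 2.69 ± 0.14 (edgeR adjusted p = 3.37e-43) and in endothelial cells by 1.75 ± 0.18 (edgeR adjusted p = 1.41e-17), and lower in neurons (-2.76 ± 0.43, edgeR adjusted p = 4.34e-09). Nfe2l2, the transcription factor released from Keap1 when Sqstm1 binds it, was higher in microglia (2.96 ± 0.08, edgeR adjusted p = 6.73e-85), astrocytes (1.08 ± 0.10) and endothelial cells (0.82 ± 0.11) and lower in precursors (-1.82 ± 0.20) and neurons (-3.08 ± 0.22, edgeR adjusted p = 1.92e-29), and Keap1 was higher in endothelial cells (0.58 ± 0.14, edgeR adjusted p = 5.62e-05).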

How the data were processed

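Drop-seq libraries of dissociated mouse cortex were sequenced on an Illumina NextSeq, and the authors deposited UMI counts per gene and barcode, with no normalization, for 3000 barcodes per table. Per the submitters' processing notes the build is mm10; the pipeline version and the counting of multiply mapped reads are not given in the sources used here. The set of genes and the pathway lists were chosen with earlier results of these data known. Barcodes with 200 to 7000 detected genes were kept, clustered (scanpy 1.11.5, 2500 variable genes without the autophagy genes, 19 components, Leiden resolution 0.5) and named from marker lists. Doublets (1646 barcodes, 5.77%, by Scrublet) were kept and were left out as an alternative. Counts were summed per library, and per library and class with at least 10 cells.

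Sums were tested with edgeR 4.0.16 (quasi-likelihood test, TMM, filterByExpr; limma 3.58.1, R 4.3.3), the 4 groups in 1 fit or library as a term between classes, and called at a Benjamini-Hochberg adjusted p below 0.05 over all genes tested and a log2 difference of at least 0.5. The study's test over cells treats cells as replicates and served as an alternative. DESeq2 1.42.0, other scalings, filters, barcode limits, clusterings and libraries left out were the other alternatives; the mitochondrial share as a covariate and its slope were added after the data were seen. The fits were tested on simulated data. All 10 genes are named over all cells; within classes those called or at an unadjusted p below 0.05; of each pathway list the 2 most abundant genes and any gene called between genotypes, beside genes at an unadjusted p below 0.05 over all cells in males, added after their values were seen; and the 3 most alike genes of each. Transcript ends were compared with blastn 2.17.0. Depth limits the neuron and precursor sums most, and ranges cover counting and mouse-to-mouse spread together.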

Additional observations from a re-analysis of the deposited data

Results flagged for a closer look

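The TG females, with 5 libraries, were the group to which Dixon's test of a single far library applies. In them, 70 combinations of a gene with all cells or with a cell class were examined. A library far from the others was found in 6, where chance gives about 1 in 20 for independent combinations. The sums over all cells contain the class sums, so these are not independent. TG female 4 was the highest in 4 of the 6: for Gabarapl1 over all cells with 153 CPM (125 to 133 in the other TG females), for Sqstm1 in astrocytes with 354 CPM (152 to 192), for Map1lc3b in oligodendrocytes with 239 CPM (133 to 162) and for Nbr1 in oligodendrocyte precursors with 269 CPM from 9 UMIs (114 to 125 CPM). TG female 2 was the lowest for Gabarapl1 in oligodendrocytes with 149.8 CPM (192 to 209 in the others). TG female 3 was the highest for Map1lc3a in neurons with 64.9 CPM from 7 UMIs (38.9 to 46.3 CPM). No cause was tested.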

How the results depend on the processing

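The cell-class calls of Gabarapl1 in microglia and neurons, Gabarap in microglia and neurons, Gabarapl2 in oligodendrocytes and Sqstm1 in microglia, oligodendrocytes and precursors held under every alternative in which the gene was tested (Gabarapl2 was not tested with at least 500 genes). The number of the 10 genes called moved as follows. With cells as replicates (Poisson), 6 were called in males over all cells (28.5% of all genes tested) and 5 in the difference between the sexes (26%), and over the 6 classes 15 in males, 2 over both sexes and 13 in the difference (9.8 to 27.9%, 4.3 to 12.6% and 3.89 to 27.7% of all genes). That test had no TMM scaling, and the median over all genes was 0.22 in males. With MB21 libraries alone it was 1 in the difference between the sexes over all cells, 1 in males over the classes, and 0 slopes on the mitochondrial share; with the shared table kept as a WT male, 1 in males over the classes. In astrocytes it was 0 with RLE factors, total UMIs, no low-count filter, a 5% mitochondrial limit, at least 500 genes or the shared table counted once. Without a low-count filter it was 7 in oligodendrocytes, 2 in endothelial cells and 4 in precursors, with at least 500 genes 2 in neurons, and with DESeq2 4 in precursors. Leaving out 1 library gave 0 to 2 for the difference between the sexes over all cells and over the classes (2 without WT female 3), 0 to 1 in males over the classes (1 without WT female 2 or 3), 0 to 1 in astrocytes, 2 to 4 in precursors (4 without WT male 4, TG female 2 or WT female 1) and 0 to 5 slopes (0 without WT female 3, 1 without WT female 2, 5 without TG female 3).

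Of the log2 differences between genotypes over all cells, these changed sign. With the mitochondrial share as a covariate, the male differences became -0.28 for Becn1, -0.27 for Gabarap, -0.03 for Gabarapl1, -0.13 for Gabarapl2, -0.36 for Map1lc3a, -0.21 for Map1lc3b, -0.09 for Sqstm1 and 0.86 for Optn, and the difference between the sexes -0.026 for Gabarapl2 and -0.17 for Map1lc3b. Nbr1 in males was 0.115 with the Poisson test, 0.12 on the permutation scale and 0.30 with equal weight per class. Optn in males was 0.032 with the shared table as a TG male, 0.22 with the Poisson test, 0.17 with at least 500 genes and 0.13 on the permutation scale. Gabarapl1 was -0.25 in males with at least 500 genes, and in females 0.025 without a filter and 0.017 without doublets. In females, Becn1 was -0.24 in the MB21 libraries. With equal weight per class in females, Gabarapl2 was 0.47 (WT females 1 and 2 gave 0 UMIs in neurons), Map1lc3b 0.009 and Sqstm1 0.20. Leaving out 1 library spanned, in females, -0.24 to 0.20 for Becn1, -0.28 to 0.24 for Gabarap, -0.051 to 0.013 for Gabarapl1, -0.51 to 0.072 for Gabarapl2, -0.53 to 0.32 for Map1lc3a, -0.40 to 0.18 for Map1lc3b, -0.032 to 0.12 for Nbr1, -0.042 to 0.77 for Optn and -0.29 to 0.13 for Sqstm1, in males -0.21 to 0.02 for Nbr1 and -0.28 to 0.23 for Optn, and for the slopes -0.022 to 0.28 for Nbr1 and -0.22 to 0.04 for Tax1bp1. Sqstm1 in neurons fell under the limit with RLE factors (-0.43) and with at least 500 genes (-0.22). The causes of these changes were not tested. No paired analysis was possible because the replicate numbers follow accession order and pair no mice.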

Other observations

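Smaller classes outside the comparisons were pooled over the 14 libraries, with no test. Macrophages (415 barcodes) had 415 CPM of Sqstm1 from 132 UMIs, 321 CPM of Gabarap from 102 UMIs and 94.4 CPM of Gabarapl1 from 30 UMIs. Mural cells (888 barcodes) had 280.4 CPM of Sqstm1, 178 CPM of Gabarapl1 from 204 UMIs and 1469.98 CPM of Tax1bp1 from 1688 UMIs. Fibroblasts (147 barcodes, 12 libraries) had 1966 CPM of Tax1bp1 from 523 UMIs and 368 CPM of Gabarap from 98 UMIs, and ependymal cells (126 barcodes) 1665 CPM of Tax1bp1 from 337 UMIs and 104 CPM of Map1lc3a from 21 UMIs.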
